A study of Mus musculus with 2 samples.

Results

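The enzymes that turn arachidonic acid into eicosanoids were followed through the cells of the mouse peritoneal cavity: the lipoxygenases Alox5 and Alox15, the 5-lipoxygenase-activating protein Alox5ap, leukotriene C4 synthase (Ltc4s), the cyclooxygenases Ptgs1 and Ptgs2, prostacyclin synthase (Ptgis) and the inducible prostaglandin E synthase (Ptges). These 8 genes were taken by symbol, each with 1 row, from the 28692 genes of the count tables. Peritoneal cells had been collected from germ-free male C57BL/6 mice 10 weeks old and profiled by droplet RNA sequencing from the 3′ end of transcripts. There was 1 library of wild-type (WT) mice and 1 of Xbp1dIEC mice, whose name denotes loss of the transcription factor Xbp1 in intestinal epithelial cells, so that the cells measured here are not the cells that carry the deletion. Each library pooled equal numbers of cells from 4 mice, with 8700 cells loaded. With 1 pool per genotype there is no replicate, no test was made, and every interval below is a 95% interval for counting error alone.

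Arachidonic acid, once released from membranes, enters either of 2 main routes. In the lipoxygenase route Alox5, helped by Alox5ap, makes leukotriene A4, which Ltc4s joins to glutathione to give leukotriene C4, a mediator of vascular leak and bronchoconstriction. Alox15 makes hydroxy acids and takes part in the synthesis of lipid mediators that limit inflammation, and it is known as an enzyme of resident peritoneal macrophages and eosinophils. In the cyclooxygenase route Ptgs1, the constitutive form, or Ptgs2, the form induced by inflammatory signals, makes the common precursor from which Ptgis forms prostacyclin and Ptges forms prostaglandin E2.

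After quality filters and removal of called doublets, 6058 WT and 6111 Xbp1dIEC cells remained, of 6204 and 6246 barcodes with 56229330 and 49703442 unique transcripts (UMIs). The median barcode held 8323.5 UMIs in WT and 7279.5 in Xbp1dIEC, and 58 barcodes occurred in both libraries. Cells were sorted into 5 classes by UMIs of marker genes that are not among the enzymes: large macrophages (Gata6, Timd4, Selp), Folr2/Retnla macrophages (Folr2, Retnla), Cd209a cells (Cd209a), B cells (Cd79a, Cd79b and Ms4a1 among others) and T cells (Cd3d, Cd3e, Cd3g). In WT and Xbp1dIEC these held 2311 and 2325, 238 and 365, 71 and 66, 1752 and 1909, and 285 and 223 cells. A further 317 and 248 cells passed both macrophage gates and are described as a group of their own. Their median depth was 11663 UMIs in WT and 9532.5 in Xbp1dIEC. Large macrophages had medians of 9783 and 7765 UMIs and Folr2/Retnla macrophages 8554.5 and 6568. The part of depth in the levels of the cells of both gates was not tested. Levels are UMIs of a gene per 1000000 UMIs of the class (CPM), and since they are counts of transcript ends they are compared between cells and not between genes. The 8 large macrophage genes kept for a check of that gate, such as Prg4 and Fn1, summed to 11398 CPM in WT and 12183 CPM in Xbp1dIEC large macrophages, against 372 and 280 CPM in B cells. They summed to 6572 and 7179 CPM in Folr2/Retnla macrophages, and the 4 genes kept to check the Folr2/Retnla gate gave 989 and 1300 CPM there against 997 and 1110 CPM in large macrophages, so these check genes separate the macrophage gates from each other only in part.

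Ptgs1 was read throughout the macrophages, and Ptgs2 gave 1 UMI in all, so the sequences before the starts of both cyclooxygenase genes are shown first. Both come from RefSeq (GRCm38.p6) and are written 5′ to 3′ on the plus strand. The stretch for Ptgs1 is chr2:36230176-36230425 and that for Ptgs2 is chr1:150099781-150100030, 250 bases up to each annotated start. Capitals mark matches, on either strand, to the motifs searched.
Ptgs1: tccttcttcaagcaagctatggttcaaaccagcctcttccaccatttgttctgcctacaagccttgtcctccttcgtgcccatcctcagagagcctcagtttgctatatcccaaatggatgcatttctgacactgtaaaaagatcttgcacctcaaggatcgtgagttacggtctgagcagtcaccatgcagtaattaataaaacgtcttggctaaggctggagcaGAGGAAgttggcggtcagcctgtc
Ptgs2: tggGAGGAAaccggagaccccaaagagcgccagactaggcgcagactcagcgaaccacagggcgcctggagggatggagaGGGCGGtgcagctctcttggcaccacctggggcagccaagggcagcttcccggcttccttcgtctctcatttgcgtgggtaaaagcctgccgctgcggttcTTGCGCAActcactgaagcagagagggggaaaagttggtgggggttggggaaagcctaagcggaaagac
The search covered these bases and the 50 that follow, for 7 motifs on both strands. They were TATAAA for the TATA box, TTGCGCAA for a palindrome bound by C/EBP factors, TGACG for the core of the cAMP response element, CACGTG for the E-box, GGGCGG for the GC box, GAGGAA for the core of PU.1 sites, and AGATAA for factors of the GATA family. GAGGAA was the single match in Ptgs1, and it also occurred once in Ptgs2, as it does in 28.3% of the 32851 promoters of the same length. Ptgs2 held in addition 1 C/EBP palindrome, present in 0.183% of promoters, and 1 GC box, present in 35.7%. Past its annotated start Ptgs2 held the cAMP element core, found in 20.8% of promoters, and an E-box, found in 7.15%, and these 2 matches overlapped. The promoters of Alox5, Ltc4s and Ptges each held the PU.1 core once as well, and Alox5 held 1 GC box and Ptges 2. A match describes letters in the window and shows neither binding nor regulation. Entries existed for 5 of the 8 enzymes, and Alox15, Alox5ap and Ptgis had none.

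The leukotriene enzymes were carried by the macrophages of both kinds, and they parted company in the Cd209a cells. In GRCm38 (GENCODE M21) Alox5 lies at chr6:116410077-116461178, Alox5ap at chr5:149264767-149288153 and Ltc4s at chr11:50236461-50238616. Alox5ap, the membrane protein that presents arachidonic acid to Alox5, stood at 1519 CPM (1503 to 1535) in WT and 1438 CPM (1421 to 1456) in Xbp1dIEC large macrophages. Its level in Folr2/Retnla macrophages was 1485 CPM (1434 to 1537) and 1237 CPM (1193 to 1281). Cd209a cells held 1306 CPM (1211 to 1407) and 1103 CPM (1010 to 1203). The 3 myeloid classes thus lay close together in Alox5ap, with large and Folr2/Retnla macrophages overlapping in WT, while B cells (51.4 and 35.99 CPM) and T cells (104 and 44.6 CPM) were far below.

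Ltc4s, which makes leukotriene C4, had 1407 CPM (1392 to 1422) in WT and 1285 CPM (1268 to 1302) in Xbp1dIEC large macrophages. In Folr2/Retnla macrophages it was slightly higher in both libraries, at 1548 CPM (1496 to 1601) and 1521 CPM (1473 to 1570). Cd209a cells had only 87.0 CPM (63.7 to 116) and 44.7 CPM (27.7 to 68.4). Here the Cd209a cells separated from both macrophage classes by a log2 ratio of -4.00 or below, although the log2 ratio of their Alox5ap level over that of large macrophages was only -0.22 in WT and -0.38 in Xbp1dIEC. Of the 46 WT Ltc4s UMIs in Cd209a cells, 23 came from 5 cells, and of the 21 in Xbp1dIEC 16 came from 5 cells. One Xbp1dIEC cell in this gate held 12 Ltc4s, 12 Alox15 and 19 Fn1 UMIs beside 4 of Cd209a, which is macrophage and Cd209a RNA under the same barcode.

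Alox5 itself gave few UMIs per cell. Its level was 88.3 CPM (84.5 to 92.2) in WT and 81.4 CPM (77.3 to 85.7) in Xbp1dIEC large macrophages. Folr2/Retnla macrophages had 51.8 CPM (42.7 to 62.3) and 63.1 CPM (53.7 to 73.8), lower than large macrophages in each library. Cd209a cells were at 15.1 and 8.52 CPM, and B and T cells between 1.09 and 2.53 CPM. The Alox5 order was therefore large macrophages, Folr2/Retnla macrophages and then the other classes. Cd209a cells, with 8 and 4 UMIs, overlapped T cells in both libraries and B cells in Xbp1dIEC, and B and T cells overlapped in both.

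**Figure D1:**
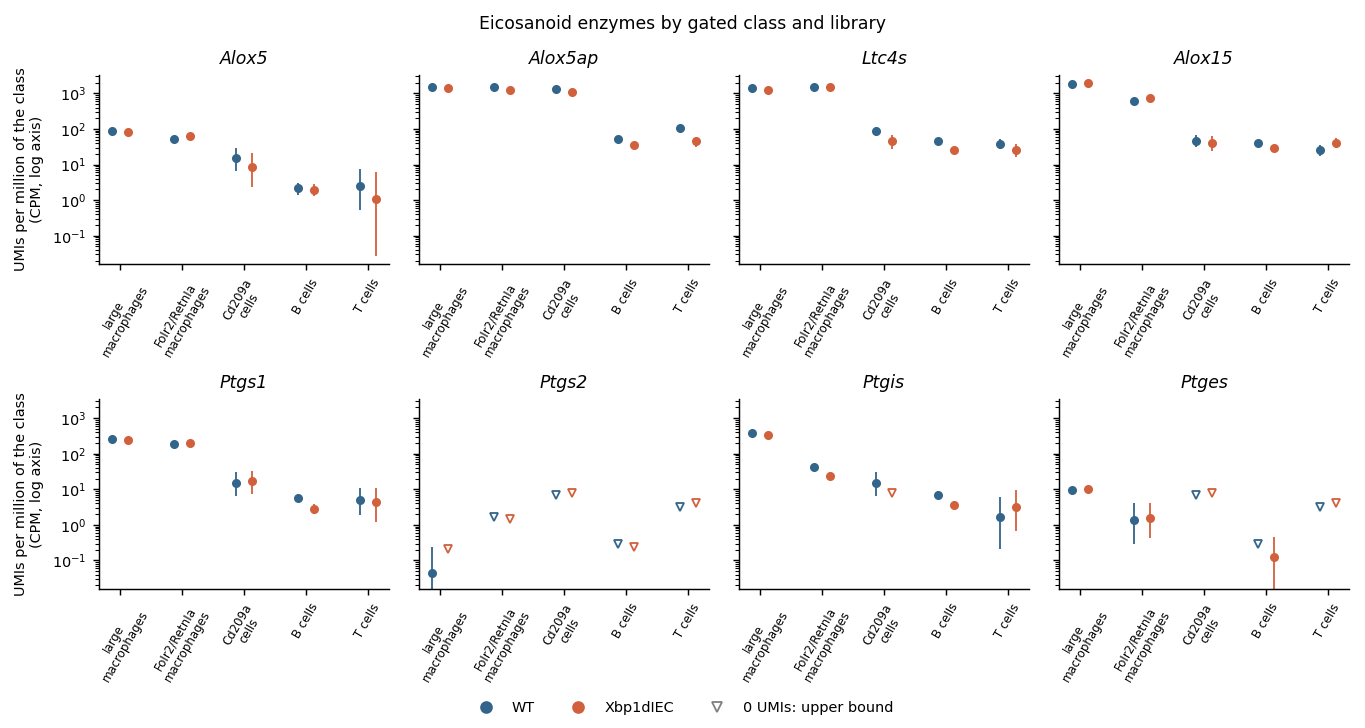
Level of each enzyme in CPM (log axis) by gated class, with WT and Xbp1dIEC side by side; points are class sums of 1 library, bars are exact Poisson 95% intervals, and open triangles give the upper bound where no UMI was seen. Alox5ap stays near its macrophage level in Cd209a cells (1306 and 1103 CPM) while Ltc4s falls to 87.0 and 44.7 CPM, and Ptgs2 shows 1 UMI in all.

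Alox15 (chr11:70344152-70352031) stood apart between the macrophage classes by level as well as per cell. Large macrophages held 1885 CPM (1867 to 1903) in WT and 1939 CPM (1918 to 1959) in Xbp1dIEC. Cells passing both macrophage gates held 1472 and 1723 CPM, and Folr2/Retnla macrophages 608 CPM (575 to 641) and 755 CPM (721 to 790). Cd209a cells (47.3 and 40.5 CPM), B cells (39.1 and 28.4 CPM) and T cells (25.3 and 40.2 CPM) formed the lowest group, with Cd209a cells overlapping at least 1 lymphocyte class in each library. The step from large to Folr2/Retnla macrophages was a log2 ratio of -1.63 (-1.71 to -1.55) in WT and -1.36 (-1.43 to -1.29) in Xbp1dIEC. The Folr2/Retnla level rests on where the gates lie. It was 382 and 615 CPM with every marker minimum lowered by 1 UMI, 909 and 1002 CPM with every minimum raised by 2, and 1030 and 1089 CPM when cells of several gates went to the gate with most marker UMIs.

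Of the cyclooxygenases, Ptgs1 (chr2:36230426-36252272) was a general macrophage gene. It stood at 251 CPM (245 to 258) and 249 CPM (242 to 257) in WT and Xbp1dIEC large macrophages, and at 189 CPM (171 to 208) and 204 CPM (187 to 223) in Folr2/Retnla macrophages. The cells of both gates held 272 and 255 CPM. Cd209a cells (15.1 and 17.0 CPM) and B and T cells (2.86 to 5.76 CPM) were far below both macrophage classes.

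Ptgs2 (chr1:150100031-150108227) was found as 1 UMI in 1 WT large macrophage and as 0 UMIs in Xbp1dIEC, over all cells kept. In Xbp1dIEC 3 counts would be 0.0624 CPM over the 48046331 UMIs of the cells kept. In 3 different cells they would be 0.0491% of its 6111 cells, so a level below these values is not excluded. Other genes induced by inflammatory signals were uneven in large macrophages: Il1b had 1 and 2 UMIs and Tnf 6 and 5, whereas Cxcl2, a chemokine gene, had 35.2 and 33.7 CPM. Ptgs2 thus differed from Ptgs1 by its near absence in every class, at the depth of these libraries.

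Ptgis (chr2:167191805-167240604), the prostacyclin synthase, was largely a gene of the large macrophages. They held 370 CPM (362 to 378) in WT and 336 CPM (328 to 345) in Xbp1dIEC. The cells of both gates held 172 CPM (159 to 186) and 144 CPM (129 to 160), and Folr2/Retnla macrophages 41.3 CPM (33.2 to 50.7) and 23.6 CPM (17.9 to 30.4). The log2 ratio of Folr2/Retnla over large macrophages, -3.13 (-3.48 to -2.87) and -3.78 (-4.23 to -3.47), was the most negative among the 7 enzymes with enough UMIs. Under the other gates tried, the Folr2/Retnla level ran from 23.7 to 114 CPM in WT and from 20.96 to 72.7 CPM in Xbp1dIEC. Cd209a cells had 15.1 CPM in WT and no UMI in Xbp1dIEC, and lymphocytes 1.69 to 7.10 CPM.

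Ptges (chr2:30889471-30929863) followed the same order at a low level. Large macrophages had 9.32 CPM (8.11 to 10.7) in WT and 10.2 CPM (8.74 to 11.7) in Xbp1dIEC, from 215 and 183 UMIs. Folr2/Retnla macrophages had 3 and 4 UMIs, or 1.38 and 1.60 CPM, which puts them at a log2 ratio of -2.12 (-5.05 to -1.19) and -2.10 (-4.56 to -1.29) to large macrophages. Cd209a and T cells had none in either library. The cells of both gates gave 5.44 and 2.92 CPM, between the macrophage classes in each library.

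A class was counted as different from another where the log2 ratio, with 1 CPM added, passed 1 in the same direction in both libraries. Folr2/Retnla macrophages were lower than large macrophages in 3 of 7 enzymes with 30 or more UMIs (Alox15, Ptgis and Ptges), where 2.3% of the 10089 genes tested were lower, and in 0 of 7 they were higher, against 1.92% of genes. Ptges passed the filter of 30 UMIs only through the large macrophages, where it is higher, so its call was favoured by the filter and nothing is read from it. Alox15 left that count with the gate minimums raised by 2 UMIs or with cells of several gates kept, as the levels above show. Cd209a cells were lower than large macrophages in 6 of 7, all but Alox5ap, against 12.7% of genes (6.05% were higher), and lower than Folr2/Retnla macrophages in 5 of 6, again all but Alox5ap, against 8.95% (4.17% were higher). The filter asked for 30 UMIs over both classes compared, in each library. Within the Cd209a cells Ltc4s had 46 WT and 21 Xbp1dIEC UMIs, and Alox15 had 25 and 19. Of these only Ltc4s in WT reached 30 by itself. Alox15 thus passed the filter only through the macrophages, where it is higher, and so did Ltc4s in Xbp1dIEC. So did Alox5 (8 and 4 UMIs), Ptgis (8 and 0) and Ptgs1 (8 and 8). These counts were therefore favoured by the filter and are no support for a property of the set. Ptges enters the first of these counts with 0 UMIs in Cd209a cells, where 3 counts would be 5.67 CPM in WT and 6.39 CPM in Xbp1dIEC, so that its distance from the 9.32 and 10.2 CPM of large macrophages is not established. Cd209a cells express the antigen presentation gene H2-Ab1 and its partners, and the 7 genes kept to check that gate summed to 75005 and 66360 CPM there, against 382 and 286 CPM in large macrophages. The same 7 genes summed to 13190 and 10341 CPM in Folr2/Retnla macrophages and to 22691 and 18594 CPM in B cells. They therefore set Cd209a cells apart from these classes less widely.

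**Figure D2:**
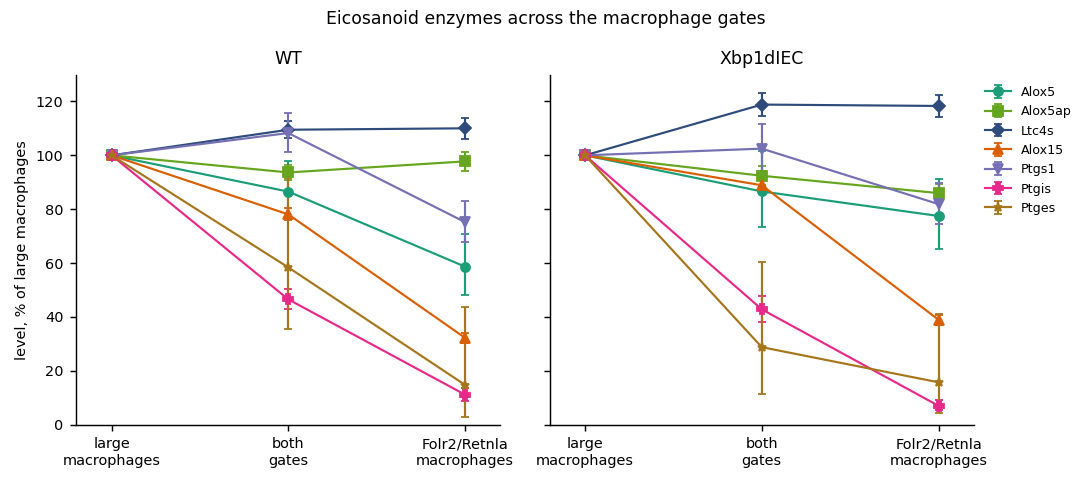
Level of 7 enzymes in cells passing both macrophage gates and in Folr2/Retnla macrophages, as a percentage of the level in large macrophages of the same library. Bars are exact binomial 95% intervals of that ratio, from the counts of both groups, and lines join the groups for reading only. Ptgis falls to 46.5% and then 11.1% in WT and to 42.8% and 7.01% in Xbp1dIEC, while Ltc4s is at 110% and 118% in Folr2/Retnla macrophages.

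Per cell, Alox15, Alox5ap and Ltc4s were read in more large macrophages than the other enzymes. For this, each cell was thinned to 2000 UMIs, so that depth was equal in all classes. Alox15 was seen in 91.3% of WT and 92.6% of Xbp1dIEC large macrophages, Alox5ap in 93.7% and 93.9%, and Ltc4s in 91.3% and 87.0%. Without thinning these shares were between 98.7% and 99.9%. Ptgis was seen in 44.3% (42.3 to 46.4) and 39.5% (37.5 to 41.5), Ptgs1 in 37.7% and 37.8%, Alox5 in 15.7% and 14.8%, and Ptges in 1.73% and 1.81%. At full depth Ptgis was seen in 76.5% and 68.4%, Ptgs1 in 83.0% and 76.9%, Alox5 in 53.4% and 43.5%, and Ptges in 8.44% and 7.57%, so how many cells show these genes depends on depth.

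B cells, taken here as the comparison for stray RNA, gave much smaller shares. Whether all of their enzyme UMIs are stray was not tested. Thinned, Alox15 was seen in 6.45% and 5.50% of B cells, Alox5ap in 7.65% and 4.77%, Ltc4s in 7.31% and 4.45%, and each of the others in at most 1.60%. The median depth before thinning was 5819 and 6684 UMIs in B cells and 9783 and 7765 in large macrophages. Every macrophage share above other than that of Ptges in Folr2/Retnla macrophages lay above the B cell share of its library. Cd209a cells carried Alox5ap in 91.5% and 89.4% of cells but Ltc4s in 8.45% (3.17 to 17.5) and 4.55% (0.947 to 12.7), a range that includes the B cell share. Large macrophages with 3 or more of the enzymes read in 2000 UMIs made up 92.4% in WT and 89.9% in Xbp1dIEC, Folr2/Retnla macrophages 49.6% and 55.9%, and B cells 0.742% and 0.471%.

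**Figure D3:**
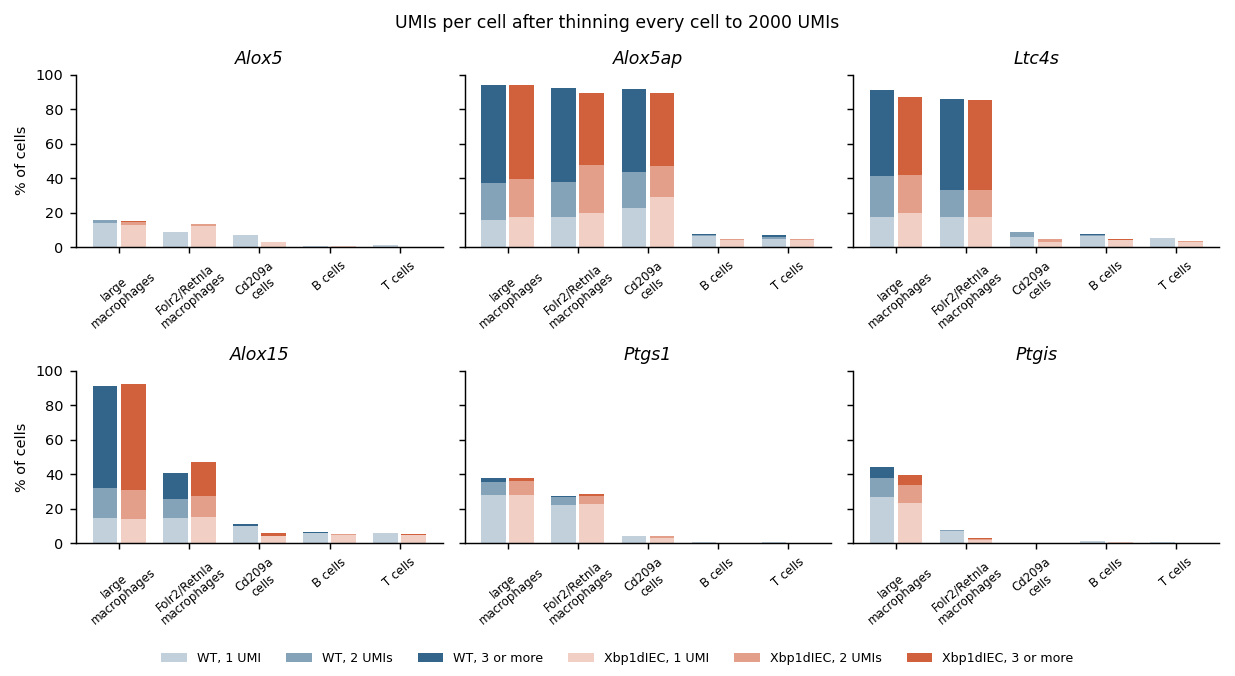
Share of cells, in percent, with 1, 2 or 3 or more UMIs of an enzyme after every cell was thinned to 2000 UMIs, by gated class and library; bars start at 0 and the uncoloured rest are cells without a UMI. Alox15 is seen in 91.3% and 92.6% of large macrophages but in 40.8% and 47.1% of Folr2/Retnla macrophages, where Ltc4s is still seen in 85.7% and 85.2% of cells.

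Among Folr2/Retnla macrophages, Alox15 was uneven from cell to cell, and Ptgis was as well, though it was read in few of these cells. Alox15 was seen in 40.8% (34.5 to 47.3) of WT and 47.1% (41.9 to 52.4) of Xbp1dIEC cells, and its variance over cells was 2.97 and 2.88 times its mean, against a median of 1.13 and 1.19 among genes of like mean, and above 99.1% and 98.4% of them. Ptgis, at 1.28 and 1.63 times its mean, lay above 97.1% and 99.8% of genes of like mean. Its ratios rest on 19 WT and 11 Xbp1dIEC cells with a UMI after thinning, of which 1 in each library held 3 UMIs. Ltc4s, seen in 85.7% and 85.2% of Folr2/Retnla macrophages, had a ratio of 1.67 and 1.65, and Alox5ap, seen in 92.0% and 89.0%, had 1.21 and 1.07. Among genes of like mean, Ltc4s lay above 72.5% and 71.4%, and Alox5ap above 17.5% and 6.25%. In large macrophages the Alox15 ratio was 2.17 and 2.08, above 93.3% and 92.0% of genes of like mean, and that of Ptgis was 1.42 and 1.53, above 94.7% and 96.3%. Single large macrophages reached 179 Alox15 UMIs in WT and 161 in Xbp1dIEC, where the medians were 16 and 13.

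Folr2/Retnla macrophages were then set out by their own Alox15 UMIs in 2000, a description chosen after these values had been seen. Cells with none numbered 141 in WT and 193 in Xbp1dIEC, cells with 1 to 2 numbered 61 and 100, and cells with 3 or more numbered 36 and 72. Ptgis was at 14.8 CPM in WT and 14.6 CPM in Xbp1dIEC cells without Alox15, and at 103 CPM (73.5 to 141) and 39.2 CPM (24.6 to 59.4) in those with 3 or more. Alox5ap (1486 to 1469 CPM in WT, 1293 to 1205 CPM in Xbp1dIEC) and Ltc4s (1531 to 1570 CPM, 1466 to 1618 CPM) changed little from the first group to the last. Ccr2, a receptor of monocyte-derived cells, was at 684 and 689 CPM in cells without Alox15 and at 68.9 and 178 CPM in cells with 3 or more. H2-Ab1 moved the same way, from 3820 to 302 CPM and from 3092 to 362 CPM, and Prg4 the other way, from 318 to 1906 CPM and from 427 to 1584 CPM. The cells with 3 or more Alox15 UMIs were also deeper, with a median of 10837.5 UMIs in WT and 8178.5 in Xbp1dIEC against 7785 and 5958, and the part of depth in these levels was not tested.

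**Figure D4:**
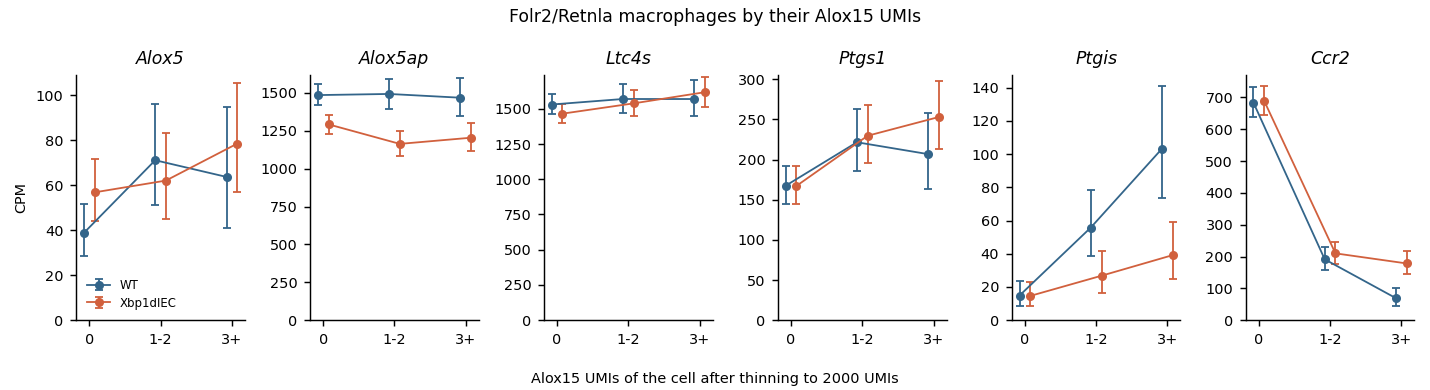
Level in CPM of 5 enzymes and of Ccr2 in Folr2/Retnla macrophages grouped by the Alox15 UMIs of the cell after thinning to 2000 (0, 1 to 2, 3 or more), for WT and Xbp1dIEC; bars are exact Poisson 95% intervals. Ptgis climbs with Alox15, to 103 CPM in WT and 39.2 CPM in Xbp1dIEC, Ccr2 falls, and Alox5ap and Ltc4s stay level.

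Within large macrophages the same grouping gave smaller differences. Cells with 3 or more Alox15 UMIs (1363 and 1437) had 394 and 340 CPM of Ptgis, against 312 and 364 CPM in cells with none, so the direction differed between libraries. Cd9, a tetraspanin gene, was at 679 and 652 CPM against 446 and 419 CPM, and it was also the gene with the highest correlation with Alox15 over large macrophages, an r of 0.30 in WT and 0.29 in Xbp1dIEC. For the other enzymes the highest was Tagln2 with Ptgs1, an r of 0.24 averaged over libraries, and cell depth is shared by all such pairs over the 4636 large macrophages. Pairs that hold an enzyme seen in nearly all cells must be seen together about as often as the product of their shares, so pairs of less frequent enzymes are given. Alox5 and Ptgs1 were seen together in 6.66% (5.68 to 7.76) of WT cells, where the product was 5.90%, and in 6.19% (5.25 to 7.25) of Xbp1dIEC cells, where it was 5.62%. Alox5 and Ptgis were seen together in 6.14%, with a product of 6.94%, and in 5.51%, with a product of 5.86%. Ptgis and Ptgs1 were seen together in 17.0% and 15.5%, with products of 16.7% and 14.9%. Each product lay within the counting interval of its observed share.

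Dividing large macrophages had less Ltc4s. Cells with 2 or more UMIs of 10 cell cycle genes after thinning made up 7.01% of WT and 3.31% of Xbp1dIEC large macrophages (162 and 77 cells). Their Ltc4s level was 964 CPM (924 to 1005) and 837 CPM (777 to 901), against 1456 and 1307 CPM in the other cells. Alox15 (1542 and 1362 CPM against 1923 and 1967 CPM) and Alox5ap (1263 and 1157 CPM against 1548 and 1452 CPM) were lower as well, while Ptgs1 was at 284 and 274 CPM against 248 and 248 CPM. The cycling cells were the deeper ones, with medians of 15192 and 12021 UMIs against 9614 and 7722.5, and this difference moves with the levels without having been tested as a cause.

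Mitochondrial share, a sign of cell quality, and depth both moved with Alox15 and Ptgis. From the third of large macrophages with the lowest mitochondrial share to the third with the highest, Alox15 went from 2163 through 1843 to 1525 CPM in WT and from 2135 through 1918 to 1653 CPM in Xbp1dIEC. Ptgis went from 387 through 406 to 296 CPM and from 365 through 353 to 265 CPM. Alox5ap, at 1516 through 1529 to 1511 CPM in WT, did not follow it there, and in Xbp1dIEC it went from 1465 through 1462 to 1361 CPM. These groups by mitochondrial share also differed in depth, with medians of 11278.5, 10489 and 7222 UMIs in WT and 8998, 8210 and 5289 in Xbp1dIEC. Split by depth in the same way, from the shallowest to the deepest cells, Alox15 went from 1532 through 1889 to 2029 CPM in WT and from 1615 through 1978 to 2048 CPM in Xbp1dIEC. Ptgis went from 280.04 through 413 to 379 CPM and from 253 through 362 to 354 CPM. Depth and mitochondrial share were not set apart, and their part in these levels was not tested. The median mitochondrial share of large macrophages was 3.11% in WT and 3.62% in Xbp1dIEC.

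Between genotypes, the levels of the enzymes in large macrophages differed little. A difference was counted where the log2 ratio of Xbp1dIEC over WT passed 0.5, and 0 of 7 enzymes did so in large macrophages, against 4.97% of 10935 genes, of which 0.805% were higher and 4.17% lower. The ratios ran from -0.14 (-0.19 to -0.09) for Ptgis, with -0.13 for Ltc4s, to 0.04 (0.02 to 0.06) for Alox15 and 0.11 (-0.17 to 0.42) for Ptges. Their median was -0.08, beside -0.05 over all genes measured. In large macrophages no enzyme passed 0.5 under any of the 10 other settings tried, which included cells under 5% mitochondrial UMIs.

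In Folr2/Retnla macrophages 1 of 6 enzymes passed 0.5, against 13.6% of genes in either direction, 5.49% higher and 8.07% lower. This was Ptgis, lower in Xbp1dIEC at -0.78 (-1.31 to -0.32), from 90 and 59 UMIs. With the gate minimums lowered by 1 UMI the Ptgis ratio was -0.17 and with them raised by 2 it was -1.08. In the same class Alox15 was at 0.31 (0.21 to 0.42) and Alox5ap at -0.26 (-0.34 to -0.19), both short of 0.5, although Alox15 reached 0.69 with the minimums lowered. The class held 238 WT and 365 Xbp1dIEC cells, with median depths of 8554.5 and 6568 UMIs. The part of depth in these genotype ratios was not tested. The share of cells with a Ptgis UMI after thinning, 7.98% (4.88 to 12.2) and 3.01% (1.51 to 5.33), had intervals that overlapped.

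Cd209a cells had 1 of 3 measured enzymes past 0.5, Ltc4s at -0.94 (-1.78 to -0.19), where 21.4% of genes passed, 7.6% higher and 13.8% lower. The ratio was 0.09 when the gates were applied to thinned cells. Fn1, a large macrophage gene, was lower there as well, at -0.94 (354 and 183 CPM), and the part of macrophage RNA in the Ltc4s ratio was not tested. Alox5ap, which these cells carry themselves, was at -0.24 (-0.41 to -0.08).

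In B cells 4 of 6 measured enzymes were lower in Xbp1dIEC, where 7.17% of genes passed in either direction, 2.89% higher and 4.28% lower. Alox5ap was at -0.50 (-0.68 to -0.35), and Ltc4s, Ptgis and Ptgs1 were each at -0.81. The 1 CPM added shrinks the ratios of Ptgis (7.10 and 3.62 CPM) and Ptgs1 (5.76 and 2.86 CPM) more than that of Ltc4s. The levels of these 4 enzymes were 1.08% to 3.39% of those in large macrophages. Among 11 macrophage genes set beside them the fractions ran from 0.833% for Cxcl13 to 11.1% for Icam2 in WT and from 0.916% to 9.63% for the same genes in Xbp1dIEC, with Fn1 at 3.34% and 2.15% and Apoe at 7.78% and 4.30%. Of the 8 large macrophage check genes, 7 had enough UMIs in B cells, and their ratios ran from -0.72 for Vsig4 and -0.54 for Fn1 to -0.23 for Prg4, -0.03 for Adgre1 and 0.70 for Cxcl13. The remaining genes of the 11 were all lower in Xbp1dIEC: C1qb at -1.10, C1qa at -0.88, Lyz2 at -0.52 and Apoe at -0.43. With gates applied to thinned cells none of the enzymes passed 0.5 in B cells, and the part of stray macrophage RNA in these ratios was not tested.

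T cells had 3 of 3 measured enzymes past 0.5, where 16.5% of genes passed, 7.01% higher and 9.46% lower. Alox15 was at 0.65 (-0.07 to 1.41), Alox5ap at -1.20 (-1.77 to -0.70) and Ltc4s at -0.52 (-1.32 to 0.20). The Alox5ap UMIs sat in few cells. In WT 56.1% of its 123 UMIs lay in 5 of 285 cells, and 8 cells had 5 or more, with 92 Alox5ap, 14 Ltc4s, 8 Alox15, 102 Fn1 and 23 Cd3d UMIs between them. Without cells of 5 or more UMIs of the gene, Alox5ap was at 28.3 CPM in WT and 21.45 CPM in Xbp1dIEC, and Alox15 at 21.2 and 28.5 CPM. In Xbp1dIEC 1 T cell held 11 Alox15, 11 Ltc4s and 44 Fn1 UMIs.

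**Figure D5:**
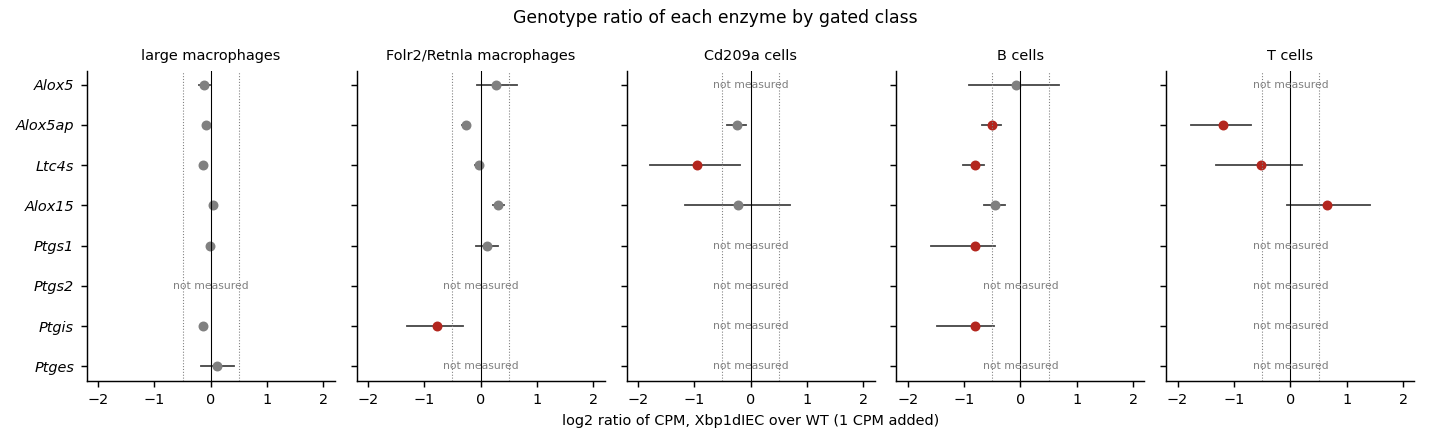
Log2 ratio of CPM, Xbp1dIEC over WT, for each enzyme in each gated class. Points have 1 CPM added, and bars are exact 95% counting intervals without it. Dotted lines mark 0.5, red points lie past it, and genes with fewer than 30 UMIs over both libraries are not shown. All 7 points of large macrophages lie between -0.14 and 0.11.

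The other genes of the pathway were followed from a list of 52, of which 51 were in the tables. In large macrophages 28 had 30 or more UMIs, 0 were higher in Xbp1dIEC and 1 was lower, beside the 4.97% of all genes. This gene was Cyp4f18, an enzyme that breaks down leukotriene B4, at -0.58 (5.16 and 3.11 CPM), and its main class was B cells, with 157 and 166 CPM. In Folr2/Retnla macrophages 2 of 24 were higher and 3 lower, beside 5.49% and 8.07% of all genes. In Cd209a cells 0 of 8 were higher and 3 lower, beside 7.6% and 13.8%. In B cells 1 of 25 was higher and 3 lower, beside 2.89% and 4.28%, and in T cells 0 of 7 were higher and 1 lower, beside 7.01% and 9.46%.

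Steps next to the enzymes were split between cell types. Dpep2, a dipeptidase that trims cysteinyl leukotrienes, was at 239 and 247 CPM in large macrophages and 251 and 222 CPM in Folr2/Retnla macrophages, the classes that carry Ltc4s. Lta4h, which makes leukotriene B4 in place of C4, was highest in Cd209a cells (66.2 and 46.9 CPM) and T cells (55.7 and 45.6 CPM) and stood at 20.8 and 16.6 CPM in large macrophages. Receptors differed in their classes. Ltb4r1, the main leukotriene B4 receptor, had 261 and 132 CPM in Cd209a cells and 24.3 and 28.4 CPM in Folr2/Retnla macrophages. In large macrophages Ltb4r1 had 0.217 and 0.444 CPM. Cysltr1, a receptor for cysteinyl leukotrienes, had 113 and 70.3 CPM in Cd209a cells and 70.6 and 65.1 CPM in Folr2/Retnla macrophages. Its level in large macrophages was 31.4 and 33.6 CPM. Ptger4, a receptor for prostaglandin E2, stood at 22.3 and 28.8 CPM in large macrophages and at most at 9.78 CPM in the other 4 classes. In Cd209a cells Ltb4r1 (-0.98), Cysltr1 (-0.68) and Dpep2 (-1.17) were lower in Xbp1dIEC, from 71 and 66 cells.

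On the prostanoid side, Tbxas1, the thromboxane synthase, was read in large (76.8 and 57.6 CPM) and Folr2/Retnla macrophages (132 and 117 CPM). Cd209a cells held Tbxas1 as well, at 58.6 and 66.03 CPM, from 31 UMIs in each library. Ptges3, a prostaglandin E synthase that also acts as a chaperone partner, was read in every class, between 81.8 and 121 CPM. Fam213b, a prostamide synthase, had 51.3 and 48.4 CPM in large and 89.0 and 66.7 CPM in Folr2/Retnla macrophages. Among the Pla2g genes listed, Pla2g7 had 58.8 and 67.9 CPM in large and 46.3 and 30.8 CPM in Folr2/Retnla macrophages. Pla2g16 had 111 and 125 CPM in T cells, 76.8 and 63.0 CPM in large macrophages and 94.5 and 69.9 CPM in Folr2/Retnla macrophages. Mgst2, which can also make leukotriene C4, had 51.4 and 43.5 CPM in T cells and 28.6 and 48.9 CPM in B cells. None of the 5 other lipoxygenase genes listed reached 50 CPM in a class.

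Markers of cell types that were not gated were followed as well, several of which are known to make eicosanoids. Of all cells kept, 42 in WT and 40 in Xbp1dIEC had 3 or more UMIs of 7 mast cell genes, 7 and 7 of 5 eosinophil genes, 165 and 134 of 5 neutrophil genes, and 0 and 0 of 4 platelet genes. Of 4 monocyte genes 2356 and 2419 cells had 3 or more, and 1 of these genes, Plac8, was at 1968 and 2037 CPM in B cells. Within large macrophages the 7 mast cell genes summed to 34.1 and 41.7 CPM, of which Hdc, the histidine decarboxylase gene, gave 31.6 and 37.9 CPM, while Cpa3 gave 0.477 and 0.777 CPM and Kit was at 0. The 5 neutrophil genes summed there to 70.2 and 85.2 CPM, of which Csf3r gave 52.7 and 71.8 CPM while S100a9 and Retnlg were at 0. The 5 eosinophil genes summed to at most 0.563 CPM, with Epx and Prg2 at 0 in both libraries. The 4 platelet genes summed to 0.260 and 0.166 CPM, and 4 of 5 mesothelial genes, Msln among them, were at 0 in each library.

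Over the 10 sums of class and library, the genes most like each enzyme differed by arm. They are given as descriptions, since the 10 points share class and depth. Ltc4s was most like C1qa and C1qb, complement genes of macrophages (r of 0.999 and 0.998). Ptgis was most like Garnl3 (0.993) and Cxcl13 (0.973), and Ptges like Selp (0.991) and Gata6 (0.979), of which Selp and Gata6 are markers of the large macrophage gate. Alox15 was nearest to Padi4 and Ednrb (both 0.992), Alox5 to Pygl (0.994) and Carhsp1 (0.994), Alox5ap to Cebpa (0.995) and Ifitm2 (0.994), and Ptgs1 to Gpx4 and Lyz2 (both 0.997). Genes that overlap Alox5ap, Ltc4s, Ptgis and Ptgs1 lie on the opposite strand, and 1 pseudogene lies within Ptges on its own strand. Whether the counting used strand is not given in the sources used here.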

How the data were processed

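What the authors deposited are raw counts, with each value the number of UMIs of a gene in a barcode. According to the submitters' processing notes the tools were Cell Ranger 2.2.0 and Seurat 2.3.0 and the build mm10; no source used here names the annotation or how barcodes were chosen. Cells needed at least 500 UMIs, at least 200 genes and a mitochondrial share below 10%. Doublets were called with scrublet in scanpy 1.11.5 at an expected share of 5% and removed (140 WT and 115 Xbp1dIEC). Gates needed 2 (large macrophages), 10 (Folr2/Retnla), 3 (Cd209a), 5 (B) or 3 (T) marker UMIs, minimums set from the marker distributions without the enzymes, and cells of several gates were left out. Not every marker of the B cell gate is reported here. CPM carry exact Poisson intervals, shares exact Clopper-Pearson intervals and ratios between genotypes or classes exact binomial intervals. The 1 CPM added to log2 ratios was not added for their intervals, so the ratios and intervals of genes at low levels describe somewhat different quantities. UMIs are not from replicate animals, so intervals cover counting error only. For ratios between genotypes, genes with 30 or more UMIs of a class over both libraries counted as measured. For ratios between classes, 30 or more UMIs over both classes were needed in each library. All 8 enzymes are named in every class; other pathway genes are named where they passed 0.5 in large macrophages or reached 50 CPM in a class, and a few others were named after their values were seen. The ratio and thinning steps were tested on simulated data. The enzymes and gene lists were chosen with earlier results of these data known.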

Additional observations from a re-analysis of the deposited data

How the results depend on the processing

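In large macrophages the count of enzymes past 0.5 was 0 under all 10 alternatives, and the counts of the class comparisons stayed within 1.5 times their value. The smaller classes and those at low levels moved. Cells of several gates given to the gate with most marker UMIs made the count 2 and the median -0.11 in Folr2/Retnla macrophages, 2 and -0.30 in B cells, and turned the median of T cells to 0.10. Gates on thinned cells made the count 0 and the median -0.038 in Cd209a cells, with Ltc4s at 0.087, and 0 and -0.24 in B cells, with Ptgs1 at 0.097. Gate minimums raised by 2 UMIs made the count 0 in Cd209a cells and 2 in B cells, and gave T cells a median of -1.84 with Alox15 at -0.40. Doublet calls kept turned the T cell median and its Ltc4s ratio to 0.063. With 10 CPM added the B cell count was 1 and the median -0.34. Without a filter on low counts the count was 3 in Cd209a and 5 in T cells. The cause of these moves was not tested. Of 250 ratios of single enzymes under alternatives, 211 moved by less than their counting interval, 35 by more and 4 turned sign. No paired analysis was possible because each genotype is 1 pooled library, and no library could be left out for the same reason. Depth limits Ptgs2, Ptges outside large macrophages, and every value of the Cd209a cells.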

Other observations

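Cells that passed no gate, 545 in WT and 588 in Xbp1dIEC, were rich in the enzymes. They held 1248 and 1316 CPM of Alox15, 1412 and 1197 CPM of Alox5ap, 1142 and 1007 CPM of Ltc4s, 193 and 181 CPM of Ptgis and 184 and 195 CPM of Ptgs1. Their median depth, 5643 and 4551.5 UMIs, was below that of large macrophages, and a gate needs a set number of marker UMIs. Cells that passed a pair of gates other than both macrophage gates, 539 and 387 in number, held 308 and 303 CPM of Alox15 and 414 and 415 CPM of Alox5ap.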
